A study of Mus musculus with 6 samples.

Results

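The genes described here make, load, take up and degrade the inhibitory transmitter GABA: *Gad1*, *Gad2* and *Slc32a1* for neuronal synthesis and vesicle loading, *Slc6a11* for astrocytic uptake, and *Abat*, *Maob*, *Aldh5a1* and *Aldh9a1* for breakdown and for the route from putrescine. They were chosen by symbol, and all 8 were found among 34745 genes and passed the filter on low values. RNA was sequenced from mouse cerebral cortex at postnatal day 8 in 3 control samples, Pen-2 F/F with both *Psenen* alleles floxed, and 3 Pen-2 cKO samples, Pen-2 F/F carrying hGFAP-Cre. PEN-2, encoded by *Psenen*, is a subunit of the γ-secretase protease that cleaves Notch, and the human GFAP promoter that drives Cre is known to be active in embryonic radial glia as well as in astrocytes. The Cre transgene is listed for the cKO samples alone, so its own effect and that of the deletion cannot be told apart.

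GABA is made from glutamate by the glutamate decarboxylases and packed into synaptic vesicles by the vesicular transporter VGAT. After release it is cleared by plasma membrane transporters, of which GAT3 is carried mainly by astrocytes. GABA transaminase then converts it to succinic semialdehyde, which is oxidised to succinate. Astrocytes can also make GABA from putrescine, a route that uses monoamine oxidase B and an aldehyde dehydrogenase.

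Fragment numbers, estimated from the FPKM values, were 20251900 to 24872600 in control libraries and 25123100 to 26809300 in cKO libraries. By that estimate every cKO library was deeper than every control library. Values are in FPKM, which adjusts fragments for the length of the gene and the size of the library. *Psenen* was 6.35, 6.86 and 7.32 FPKM in the control group and 3.56, 3.90 and 4.03 FPKM in the cKO group. *Maob* had the fewest fragments of the genes described here, about 65 in its lowest library at the median length of its annotated transcripts, *Aldh9a1* about 96, and the other members at least 408. The tissue is bulk cortex, in which fewer cells of a type and less RNA per cell cannot be told apart. The labels do not say that each sample came from a separate animal, so the spread behind each p-value may be technical.

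The start regions of the 3 synthesis and loading genes, which were higher in every cKO library, and of *Slc6a11*, which was lower in every one, are given to show how they differ in base composition. Each runs from 250 bases before to 50 bases after the RefSeq start on GRCm38.p6 (the assembly of mm10), with CpG dinucleotides in capitals. The plus-strand windows are *Gad1* at chr2:70561879-70562178, *Gad2* at chr2:22622077-22622376, *Slc32a1* at chr2:158610508-158610807 and *Slc6a11* at chr6:114130991-114131290. The *Gad1* window lies wholly inside the deposited range of that gene, which begins at 70553072 and has 8 annotated transcripts. It is therefore not at the first start of the gene.
Gad1: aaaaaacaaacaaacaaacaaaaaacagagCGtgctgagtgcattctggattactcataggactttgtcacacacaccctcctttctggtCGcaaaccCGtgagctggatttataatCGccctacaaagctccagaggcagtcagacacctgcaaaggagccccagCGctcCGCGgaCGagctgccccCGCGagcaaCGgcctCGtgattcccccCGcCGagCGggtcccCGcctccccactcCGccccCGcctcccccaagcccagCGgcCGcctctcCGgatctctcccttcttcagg
Gad2: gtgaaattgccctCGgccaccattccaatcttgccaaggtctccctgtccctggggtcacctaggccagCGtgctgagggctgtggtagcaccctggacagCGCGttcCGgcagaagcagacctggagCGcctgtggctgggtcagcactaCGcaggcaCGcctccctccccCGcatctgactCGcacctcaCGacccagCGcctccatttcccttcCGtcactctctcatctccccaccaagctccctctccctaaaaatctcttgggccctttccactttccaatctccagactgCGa
Slc32a1: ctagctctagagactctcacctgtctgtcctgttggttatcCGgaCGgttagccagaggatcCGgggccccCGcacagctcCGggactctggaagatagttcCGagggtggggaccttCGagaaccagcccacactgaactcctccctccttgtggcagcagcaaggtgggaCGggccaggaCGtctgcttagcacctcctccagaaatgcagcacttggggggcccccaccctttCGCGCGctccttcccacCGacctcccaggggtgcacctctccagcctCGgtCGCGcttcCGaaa
Slc6a11: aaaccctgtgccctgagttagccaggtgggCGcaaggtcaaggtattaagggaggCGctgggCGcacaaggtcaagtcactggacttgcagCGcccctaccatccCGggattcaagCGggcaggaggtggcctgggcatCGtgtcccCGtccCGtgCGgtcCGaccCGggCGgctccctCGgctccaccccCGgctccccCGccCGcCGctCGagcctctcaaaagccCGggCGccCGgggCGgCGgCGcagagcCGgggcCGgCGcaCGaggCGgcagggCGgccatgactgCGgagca

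The *Slc6a11* window held 32 CpG and was 72.3% G or C, against 21, 14 and 17 CpG and 60.0%, 61.3% and 63.3% G or C for *Gad1*, *Gad2* and *Slc32a1*. The median of 32851 RefSeq windows of the same length was 7 CpG and 52.7% G or C. All of these windows were therefore above the median on both measures. A core of the Notch effector RBPJ, TGGGAA or its reverse complement TTCCCA, was found once in these windows, in *Slc32a1*, and in 25.6% of all windows. The homeodomain core TAATTA, which DLX factors can bind, was in none of the 4 and in 5.3% of all windows, among them *Aldh9a1* with 2 copies. RefSeq windows were matched for 6 of the 8 members, all but *Abat* and *Maob*. *Aldh5a1*, which was also lower in every cKO library, had a window with 24 CpG and 60.3% G or C. That share lies between those of *Gad1* and *Gad2*. Whether base composition goes with the direction of the difference was not tested.

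Of the 3 neuronal synthesis and loading genes, *Gad1* rose in cKO cortex, and *Gad2* and *Slc32a1* did not pass the test. *Gad1* encodes GAD67, the decarboxylase that supplies most of the brain's GABA (ENSMUSG00000070880, chromosome 2, 70553072 to 70602014). It was 15.4, 13.9 and 14.6 FPKM in the control group and 19.7, 21.0025 and 25.5 FPKM in the cKO group. The groups did not overlap, and cKO replicate 3 was the highest. The mean rose from 14.6 ± 0.745 to 22.1 ± 3.05 FPKM (SD over 3 libraries). The log2 fold change was 0.58 (SE 0.10, adjusted p = 0.0214 in limma over 14147 tested genes). The call was lost without control replicate 1 (log2 0.62, adjusted p = 0.0635), control replicate 2 (0.55, adjusted p = 0.0896) or cKO replicate 2 (0.61, adjusted p = 0.0648).

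*Gad2* encodes GAD65, the decarboxylase found at nerve terminals (chromosome 2, 22622205 to 22693874). It was 21.2, 22.1 and 20.1 FPKM in the control group and 24.3, 26.0 and 33.8 FPKM in the cKO group. As with *Gad1*, the groups did not overlap and cKO replicate 3 was the highest. The log2 difference was 0.39 (SE 0.12, 95% interval 0.11 to 0.67) and did not pass after adjustment (adjusted p = 0.110).

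*Slc32a1* encodes VGAT (chromosome 2, 158610767 to 158615748). Its level was 43.0, 43.2 and 48.6 FPKM in the control group and 54.4, 56.5 and 74.3 FPKM in the cKO group. Again every cKO library was above every control library. The log2 difference of 0.44 (SE 0.12, adjusted p = 0.0805) passed with equal library sums (0.50, adjusted p = 0.0371). Without cKO replicate 3 the log2 differences of *Gad1*, *Gad2* and *Slc32a1* were 0.47, 0.25 and 0.30.

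Astrocytic uptake moved the other way. *Slc6a11* encodes GAT3, which clears GABA into astrocytes (ENSMUSG00000030307, chromosome 6, 114131241 to 114249952). It was 73.0, 68.8 and 75.1 FPKM in the control group and 31.0, 31.6 and 35.4 FPKM in the cKO group. The highest cKO library lay far below the lowest control library, and the mean cKO level was 45.2% of control. The log2 fold change was -1.15 (SE 0.07, limma, adjusted p = 0.000545), and *Slc6a11* ranked 7 by p among the tested genes. With other settings or 1 library left out, its log2 fold change stayed between -1.22 and -1.09 and its adjusted p between 0.000314 and 0.00664.

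The breakdown genes showed smaller differences, none of which passed. *Abat* encodes GABA transaminase, which opens GABA degradation in neurons and astrocytes. It was 23.1, 25.0 and 25.9 FPKM in the control group and 19.4, 20.5 and 29.0 FPKM in the cKO group. A pair of cKO libraries lay below all controls and cKO replicate 3 above them. Its log2 difference was -0.12 (95% interval -0.47 to 0.22, adjusted p = 0.668). Leaving out cKO replicate 3 gave -0.30 (adjusted p = 0.0776).

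*Aldh5a1* encodes succinic semialdehyde dehydrogenase, the last enzyme of the route. Its values were 18.3, 18.1 and 19.8 FPKM in the control group and 14.3, 15.7 and 16.2 FPKM in the cKO group. All cKO libraries were below the controls, with a log2 difference of -0.29 (SE 0.07, adjusted p = 0.0638). The call depended on scaling: it passed with median-ratio scaling (-0.36, adjusted p = 0.0480) and with upper-quartile scaling (-0.34, adjusted p = 0.0407). The lncRNA gene 9330162012Rik, on the opposite strand with overlapping exons, was at 0.436 to 1.01 FPKM, and whether counting used strand is not given in the sources used here.

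*Maob*, which encodes monoamine oxidase B, was the lowest member, at 2.50, 2.71 and 3.16 FPKM in the control group and 2.27, 2.10 and 2.80 FPKM in the cKO group. The groups overlapped (log2 difference -0.22, 95% interval -0.56 to 0.13, adjusted p = 0.434). *Aldh9a1*, whose enzyme oxidises γ-aminobutyraldehyde to GABA, was 8.26, 6.61 and 7.03 FPKM in the control group and 7.93, 8.14 and 8.24 FPKM in the cKO group. These groups overlapped as well (log2 difference 0.16, 95% interval -0.07 to 0.38, adjusted p = 0.388). The intervals of both genes include 0, and the bounds do not show that either gene was equal in the groups.

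**Figure D1:**
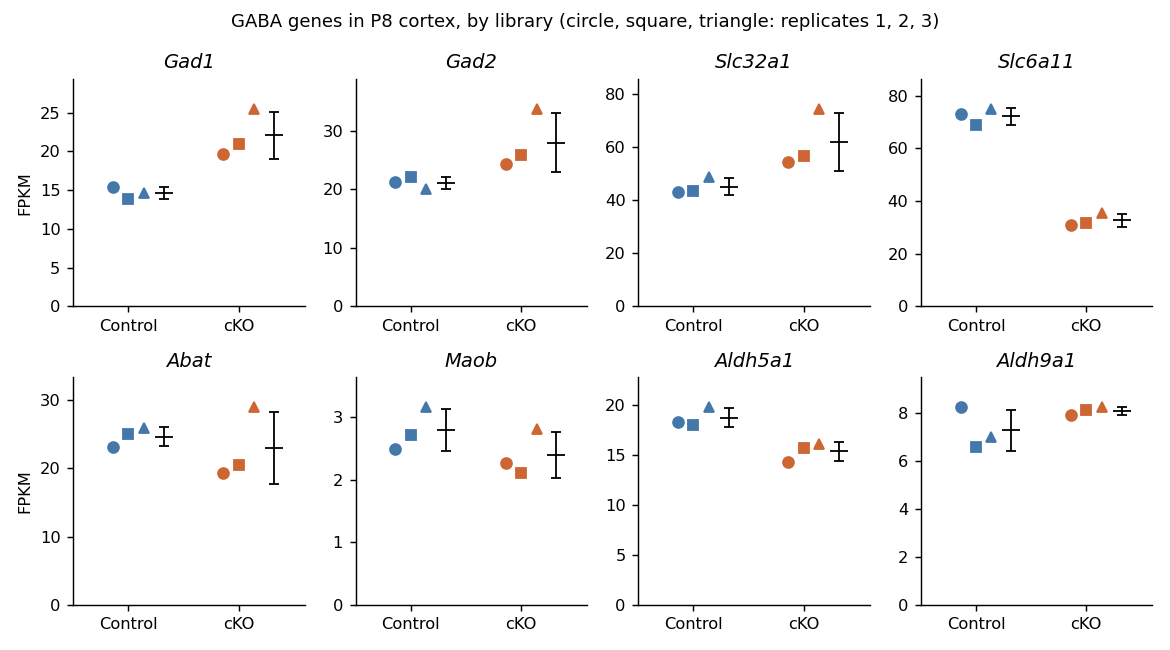
FPKM of the 8 genes in each library (circle, square and triangle for replicates 1, 2 and 3; control blue, cKO orange) with the mean and SD of 3 beside each group, each axis starting at 0. The cKO points of *Gad1*, *Gad2* and *Slc32a1* lie above the control points, those of *Slc6a11* and *Aldh5a1* below, and those of *Abat*, *Maob* and *Aldh9a1* overlap.

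Of the 8 members, 1 was called higher and 1 lower, against 3.67% of all tested genes called higher and 1.87% called lower. Groups without overlap were seen for 3 members with cKO higher and 2 with cKO lower, against 21.5% and 8.17% of all tested genes. The median log2 difference of the 8 was 0.02, beside 0.07 for all tested genes.

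The order of the levels differed between the groups. In control cortex *Slc6a11* was highest at 72.3 ± 3.23 FPKM, followed by *Slc32a1* at 45.0 ± 3.20, *Abat* at 24.7 ± 1.42, *Gad2* at 21.1 ± 1.01, *Aldh5a1* at 18.7 ± 0.942, *Gad1* at 14.6 ± 0.745, *Aldh9a1* at 7.30 ± 0.856 and *Maob* at 2.79 ± 0.338 FPKM. The libraries of each gene in that order were clear of those of the next. In cKO cortex *Slc32a1* came first at 61.7 ± 10.96 FPKM, then *Slc6a11* at 32.7 ± 2.41, *Gad2* at 28.0 ± 5.10, *Abat* at 22.9 ± 5.26 and *Gad1* at 22.1 ± 3.05 FPKM. The ranges of *Slc6a11* and *Gad2* overlapped there, as did those of *Gad2*, *Abat* and *Gad1*. Within each cKO library *Slc6a11* was above *Gad2*, and *Gad2* above both *Abat* and *Gad1*, while *Abat* was above *Gad1* in replicate 3 alone. *Aldh5a1*, *Aldh9a1* and *Maob* followed, at 15.4 ± 0.980, 8.10 ± 0.157 and 2.39 ± 0.364 FPKM. Levels of different genes rest on the transcript lengths used for FPKM, which are not given for genes with several transcripts.

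Ratios of genes within a library set synthesis against uptake without depending on how libraries were scaled. *Slc6a11* over *Gad1* was 4.75, 4.96 and 5.13 in control and 1.57, 1.505 and 1.39 in cKO libraries, a log2 difference of -1.73. *Abat* over *Gad1* was 1.504, 1.80 and 1.77 in control and 0.983, 0.976 and 1.14 in cKO libraries. *Maob* over *Gad1* was 0.162, 0.195 and 0.216 in control and 0.115, 0.1002 and 0.110 in cKO libraries. *Abat* and *Maob* thus lay lower against *Gad1* in every cKO library than in any control library, although each overlapped between groups and neither passed alone. *Gad1* is the divisor of all 4 ratios and was itself higher in every cKO library. The 4 ratios are therefore not separate results, and each in part restates the rise of *Gad1*. The ratio of the decarboxylases, *Gad2* over *Gad1*, moved least, from 1.37 to 1.59 in control to 1.23 to 1.33 in cKO libraries (log2 difference -0.19). Groups did not overlap in any of 4 ratios, and each gave a two-sided exact permutation p of 0.1 (0.1 after adjustment over the 4), the smallest that 3 against 3 samples allow.

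**Figure D2:**
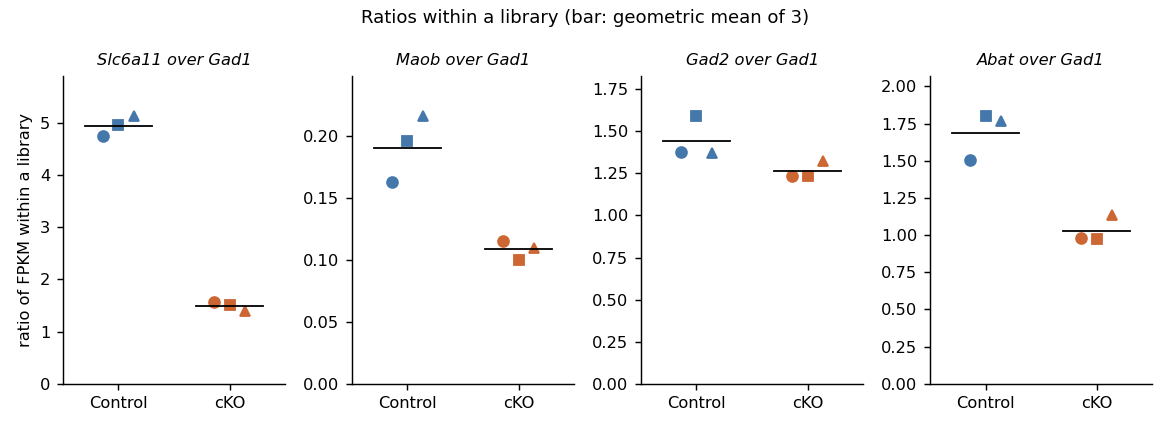
Ratios of FPKM between 2 genes of the same library (symbols as replicates 1, 2 and 3, control blue, cKO orange, bar at the geometric mean of 3), each axis starting at 0. *Slc6a11* over *Gad1* drops from about 4.94 to 1.49, and the *Gad2* over *Gad1* groups lie closest together.

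Markers of the cells that carry these genes were measured beside them. The counts for each list stand against 3.67% of all tested genes called higher and 1.87% called lower. Of 13 tested interneuron markers 1 rose and none fell: *Sst*, the peptide somatostatin, was 362, 413 and 432 FPKM in the control group and 626, 661 and 565 FPKM in the cKO group (log2 0.62, adjusted p = 0.00872). *Npy* missed the threshold (log2 0.45, adjusted p = 0.0510), *Vip* was lower without passing (-0.37, adjusted p = 0.165), and *Lhx6* had a log2 difference of 0.20. The summed interneuron list, most of it *Sst*, was 645 to 716 FPKM in the controls and 906 to 979 FPKM in cKO libraries. Of these libraries cKO replicate 3, highest in *Gad1*, *Gad2* and *Slc32a1*, was the lowest cKO library in this sum.

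None of 7 Dlx neuroblast markers passed. Their sum, most of it *Dcx*, was 56.3 to 69.2 FPKM in the controls and 53.2 to 59.5 FPKM in cKO libraries. *Dcx* was 46.9, 47.8 and 39.3 FPKM in the control group and 40.5, 36.9 and 35.9 FPKM in the cKO group. The rest of the list had log2 differences from -0.52 (*Sp8*) to 0.23 (*Sp9*). Of the cKO libraries, replicate 3 was the highest in each of those genes and the lowest in *Dcx*. The striatum, whose projection neurons use GABA, adjoins the cortex. Of 10 striatal markers 2 rose, *Rgs9* and *Tac1* (log2 0.59 and 0.66, both at adjusted p = 0.0492), and none fell. The striatal sum was 85.8, 151 and 157 FPKM in control replicates 1, 2 and 3. Of the controls, *Gad1* was highest in replicate 1, *Gad2* in replicate 2 and *Slc32a1* in replicate 3. In cKO replicates 1, 2 and 3 the sum was 163, 169 and 244 FPKM, highest in the same library as the synthesis genes. For *Ttr*, the defining choroid plexus gene, controls were at 33.1, 104 and 178 FPKM and cKO libraries at 324, 182 and 876.5 FPKM. The groups did not overlap but *Ttr* did not pass (log2 2.13, adjusted p = 0.187 in limma). It too was highest in cKO replicate 3. This was not particular to these tissues, as cKO replicate 3 was the highest cKO library in 8 of the 11 marker sums, all but the interneuron, excitatory and pan-neuronal ones. None of the interneuron, Dlx or striatal markers was at 0 throughout. The part of striatal tissue, of choroid plexus or of the number of interneurons in the rise of *Gad1* was not tested.

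Of 19 astrocyte markers, 13 fell and none rose, with a median log2 difference of -1.50. *Aldoc*, *Ndrg2* and *Cldn10*, the 3 with the smallest p, had log2 fold changes of -2.41, -1.36 and -2.36. The astrocyte sum was 487 to 590 FPKM in the controls and 172 to 289 FPKM in cKO libraries, with no marker at 0 throughout. *Slc6a11* fell beside this list, and the part of astrocyte number in its fall was not tested. Excitatory and pan-neuronal markers, measured for the other neurons, had 1 of 8 (*Emx1*) and 1 of 5 (*Tubb3*) lower and none higher. Of the lists for other cell types, 9 of 12 oligodendrocyte lineage markers rose, 1 of 7 endothelial markers rose (*Cdh5*) and 1 fell (*Slco1c1*), 1 of 6 microglia markers rose (*Tyrobp*), and none of 3 tested choroid plexus markers passed.

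**Figure D3:**
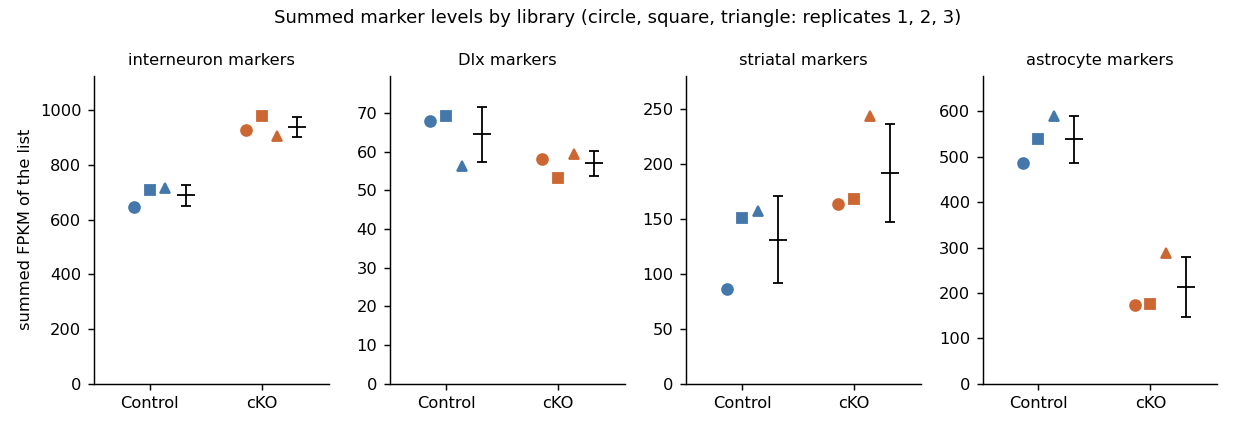
Summed FPKM of the interneuron, Dlx neuroblast, striatal and astrocyte marker lists in each library (symbols as replicates 1, 2 and 3, control blue, cKO orange, mean and SD of 3 beside them), each axis starting at 0. The interneuron and striatal sums lie higher and the astrocyte sum lower in cKO libraries, and the striatal sum is highest in cKO replicate 3 at 244. Most of the Dlx sum is *Dcx*.

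*Slc6a13*, which encodes the GABA transporter GAT2, did not pass. It was 3.79, 2.89 and 3.03 FPKM in the control group and 5.44, 3.23 and 8.71 FPKM in the cKO group (log2 0.72, adjusted p = 0.254). GAT2 is known from the meninges, and of 10 meningeal markers 3 rose (*Lum*, *Dcn* and *Col3a1*), with a sum of 32.8 to 49.4 FPKM in the control group and of 92.3, 63.3 and 107 FPKM in cKO replicates 1, 2 and 3. The order of the cKO libraries was the same in *Slc6a13* and in that sum, but control replicate 1, the highest control in *Slc6a13*, was the lowest in the sum. The part of meningeal tissue in its difference was not tested. *Slc6a12*, its neighbour on chromosome 6, was at 0.190 to 0.482 FPKM and was not tested.

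Of 9 genes that supply glutamate and glutamine, 3 fell, 1 rose and 5 did not pass. *Glul*, the glutamine synthetase of astrocytes, was 143, 167 and 149 FPKM in the control group and 46.9, 42.2 and 61.6 FPKM in the cKO group (log2 -1.62, adjusted p = 0.00155). *Glud1*, glutamate dehydrogenase, fell from 73.1 ± 3.03 to 35.5 ± 3.60 FPKM (n = 3 per group), and the glutamate transporter gene *Slc1a3* from 33.7 ± 0.832 to 9.12 ± 3.39 FPKM. *Slc38a2*, a neutral amino acid transporter that can carry glutamine, rose from 24.996 ± 0.523 to 31.7 ± 1.06 FPKM (log2 0.34, adjusted p = 0.0136). That call was lost without control replicate 2 (adjusted p = 0.0662) or cKO replicate 1 (adjusted p = 0.0584). *Slc38a3*, a glutamine transporter, was 5.27, 5.54 and 6.35 FPKM in the control group and 2.58, 2.47 and 4.39 FPKM in the cKO group. It narrowly missed the threshold (log2 -0.89, adjusted p = 0.0585) and passed with equal library sums (-0.84, adjusted p = 0.0498) or without cKO replicate 3 (-1.14, adjusted p = 0.0041). *Slc1a2*, the main astrocytic glutamate transporter, was 12.4, 52.9 and 60.6 FPKM in the control group and 6.18, 21.1 and 20.97 FPKM in the cKO group. Replicate 1 was the lowest library of each group, and the groups overlapped (log2 -1.28, 95% interval -3.16 to 0.60, adjusted p = 0.388).

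Among 7 other enzymes, 1 fell and none rose. *Adhfe1* encodes the transhydrogenase that turns γ-hydroxybutyrate, a side product of GABA breakdown, back into succinic semialdehyde. It was 2.94, 3.20 and 3.11 FPKM in the control group and 1.12, 1.19 and 1.45 FPKM in the cKO group (log2 -1.24, adjusted p = 0.00345). *Maoa*, the paralog 21.5 kb from *Maob* on chromosome X, was 24.5 ± 0.455 and 23.7 ± 0.929 FPKM, and *Odc1*, which makes putrescine, 40.2 ± 2.51 and 43.1 ± 3.62 FPKM. Neither passed (adjusted p = 0.642 and 0.518).

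In all, 4 of the 17 tested pathway genes outside the member list fell and 1 rose, against 1.87% and 3.67% of all tested genes. Their median log2 difference was -0.10. *Slc1a2* and *Slc1a3* among them were also counted as astrocyte markers. *Glul*, *Slc1a3* and *Slc6a11* are all known from astrocytes.

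**Figure D4:**
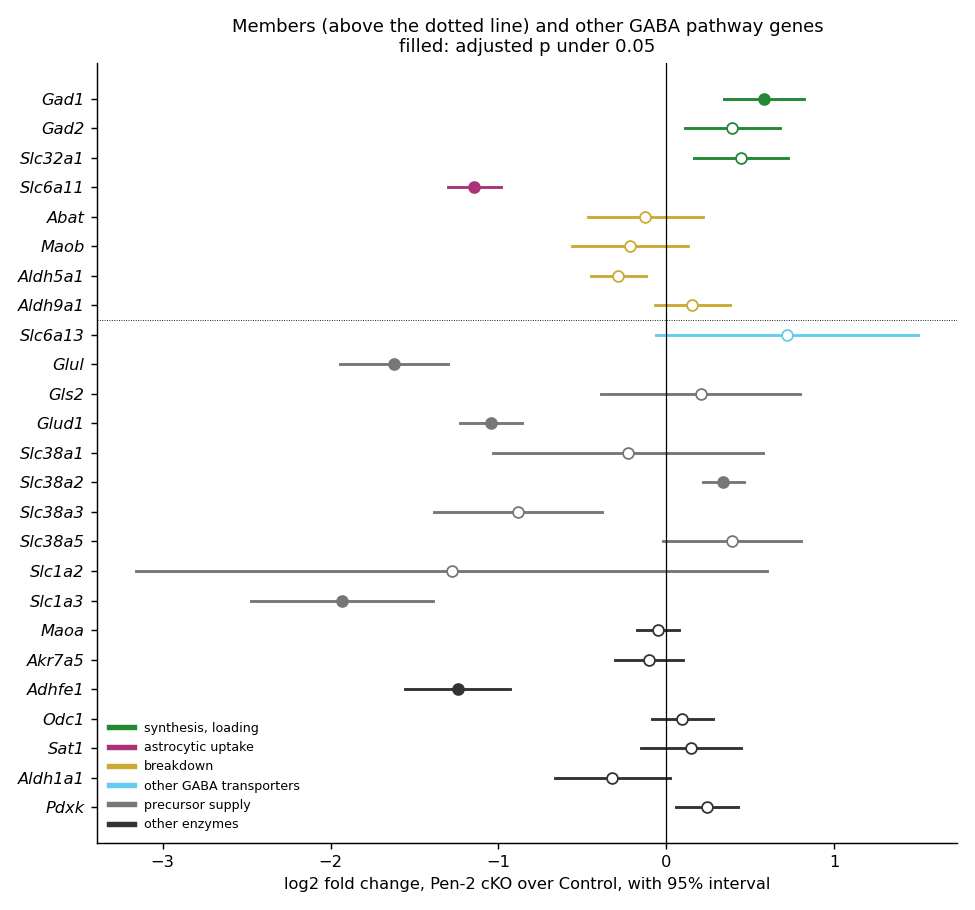
Log2 fold change of cKO over control (point) with its 95% interval (line) for the 8 members, above the dotted line, and 17 other tested pathway genes, coloured by role and filled where the adjusted p was under 0.05. *Slc6a11*, *Glul*, *Glud1*, *Slc1a3* and *Adhfe1* are the filled points below 0, and *Gad1* and *Slc38a2* those above 0.

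Profiles over the 6 libraries were compared by the root mean square difference of log2 levels, each gene set to its control mean, among 6934 tested genes averaging 5 FPKM or more. The 4 genes nearest to *Slc6a11* were *Mmd2*, *Ttyh1*, *Glud1* and *Phgdh*, at 0.09, 0.10, 0.10 and 0.11. The nearest to *Gad1* were *Lipa*, *Gm12184*, *Siva1* and *Gm1840*, at 0.03, 0.06, 0.07 and 0.07, with *Slc32a1* at rank 44 and *Gad2* at rank 85. The nearest to *Maob* were *Ctnna1*, *Fuca1*, *Acaa2* and *Grin1*, at 0.05, 0.05, 0.05 and 0.08, with *Abat* at rank 57 and *Aldh5a1* at rank 96. *Aldh9a1*, of the same route, ranked 5053 and *Gad1* 6643.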

How the data were processed

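RNA from the cortex of 3 control and 3 Pen-2 cKO samples was sequenced. The authors deposited FPKM for each library, per the file headers, in spite of a file name that speaks of raw counts. Per the submitters' processing notes the genome was mm10. Which aligner, counting program and annotation were used, and whether strand was, is not given in the sources used here. All 6 per-library tables held the same values as the series-wide table. Depth came from single-transcript genes, whose lowest values are multiples of 1 fragment. 56.7% to 67.1% of such genes' values were within 0.01 of a whole fragment. The length used for genes with several transcripts is not known, so whole counts were not rebuilt and no count model was used.

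Testing covered the 14147 genes that reached 0.5 FPKM in 3 or more libraries, by limma 3.58.1 in R 4.3.3 on log2(FPKM + 0.1), with mean-variance trend, robust estimation and group as the only term, adjusted by Benjamini-Hochberg over all of them. Fold changes on that scale understate the change of low genes. Calls are adjusted p under 0.05. The steps were tested on simulated data with independent normal noise and known changes in 67, 67 and 66 of 14147 genes. Fewer genes were changed there than the 783 called in the data, so the recovery rates need not hold for these data. They recovered 62.7% of 1.5-fold, 74.6% of 2-fold and 95.5% of 4-fold changes, so a gene that did not pass may still differ. Ratios used exact permutation in SciPy 1.17.1. Named genes were all members, called pathway genes and the most expressed of each list, the 4 nearest profiles, and up to 3 markers per list by p. Others named, such as *Lhx6*, *Slc6a12*, *Slc38a3*, *Slc1a2* and *Maoa*, were chosen after their values were seen. Some pathway genes are not reported here, and list counts leave them out. The members and lists were chosen with earlier results of these data known. Coordinates are the deposited ones, counted from 1, of which 27686 ranges equal GENCODE M21. Alternatives varied filter, pseudocount, scaling, variance model, replicate block and each library left out.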

Additional observations from a re-analysis of the deposited data

How the results depend on the processing

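With 3 libraries per group, *Slc6a11* stayed lower and called in all 16 alternatives, and *Gad1* stayed higher in all 16 and called in 13. *Gad2*, *Abat*, *Maob* and *Aldh9a1* kept their direction and were called in none. Members called lower numbered 1, and 2 with median-ratio or upper-quartile scaling, where *Aldh5a1* passed. Members called higher numbered 1, 2 with equal sums and 2 with the replicate block, where *Slc32a1* passed, and 0 to 1 with 1 library left out. Of all tested genes 783 were called (519 higher, 264 lower), 499 with no filter on low values, 456 with the replicate block and 210 to 813 with 1 library left out (300 and 210 leaving out control replicates 1 and 2, 315 and 302 leaving out cKO replicates 1 and 2). The calls were 312 higher and 346 lower with median-ratio scaling, 351 and 346 with upper-quartile scaling, and 907 and 244 with equal sums. Other pathway genes called higher numbered 1, 2 with equal sums, and 0 to 1 with 1 library left out (0 without control replicate 2 or cKO replicate 1). Those called lower numbered 4, 5 with equal sums, 6 with the replicate block and 4 to 5 with 1 library left out. The block brought in *Slc1a2* (log2 -1.28, adjusted p = 0.00863 in limma) and *Slc38a3* (-0.89, adjusted p = 0.0443). The ratios moved by less than the spread between replicates in all alternatives run. The cause of these changes was not tested.

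Signs turned for *Maoa*, which was near 0 (log2 0.00148 with equal sums), and for *Slc38a1*. *Slc38a1* had a log2 difference of -0.23 (SE 0.33), and -0.453 to 0.180 with 1 library left out, above 0 without cKO replicate 2. It was 9.91 FPKM in that library, and 24.0 and 22.6 FPKM in cKO replicates 1 and 3, above all controls (18.4 to 22.2 FPKM). *Gls2* had no value with the filter at 1 FPKM. Whether the replicate numbers pair the samples was not settled. Deviations from the group means correlated at 0.061, 0.012 and 0.1 between same-numbered libraries and at -0.091 to 0.056 between the others. Libraries numbered 1 and 3 correlated best with their own number, and those numbered 2 did not. Weak correlations over all tested genes cannot exclude a pairing.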
